A study of Mus musculus with 12 samples.

Results

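The 35 genes described here encode channels and carriers of the mitochondrial membranes, proteins of the BCL2 family and the factors that they release, and the machinery of mitochondrial fusion, fission and mitophagy. They were found by gene symbol among the 24061 symbols counted in each heart library, and all 35 were present and passed the filter on low counts. The RNA came from 12 heart samples, 6 heterozygous for hexokinase II (HKII+/-) and 6 wild type (HKII+/+), and the labels do not say whether each was a separate animal. All were from male mice of the C57BL/6J strain, fed chow and between 2 and 4 months old. How the HKII allele was altered is not given in the sources used here, and the labels name no other allele or treatment in either group. Replicate 11 (HKII+/-) and replicate 13 (HKII+/+) carry a submitters' remark that each may be an outlier, so values are given with all 12 libraries and without those 2 (5 per genotype). Expression is in CPM, the count of a gene as a share of its library's total, scaled by edgeR's TMM factors over all 12 libraries.

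Hexokinase II phosphorylates glucose and can dock on the voltage-dependent anion channels (VDAC) of the outer mitochondrial membrane, the pores through which ATP and ADP leave and enter the organelle. The same membrane is where BAX and BAK open pores that release death factors, unless survival proteins of the BCL2 family hold them in check, while prolonged opening of the permeability transition pore, which cyclophilin D promotes, collapses the inner membrane potential. Cardiomyocytes are packed with mitochondria, whose network is kept by fusion and fission proteins and whose damaged members are removed by mitophagy.

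Hk2, the gene that the genotype lowers, measured 273, 267, 312, 256 and 354 CPM in the unmarked HKII+/- libraries and 471, 542, 522, 524 and 486 CPM in the unmarked HKII+/+ ones, in the order of replicates 12, 16, 19, 20 and 22 and of replicates 14, 15, 17, 18 and 21 used for every list of 5 values below. The groups did not overlap, and the fold change was -0.80 (95% interval -0.99 to -0.61) on the log2 scale, with an edgeR Benjamini-Hochberg adjusted p of 0.0165. That call was lost when replicate 12, 15, 16, 17, 18, 19 or 20 was also left out, with adjusted p up to 0.0951. Over the 10 libraries an exact two-sided permutation test gave p = 0.00794, the lowest value possible with 252 splits. The marked libraries held 568 CPM in replicate 11 and 653 CPM in replicate 13, so the library labelled HKII+/- replicate 11 had the Hk2 level of an HKII+/+ library. Scaled by total counts alone, its Hk2 was 446 CPM, under the lowest HKII+/+ library (494 CPM). Hk2 differed by -0.66 (95% interval -1.08 to -0.23) in the fit of all 12 libraries, with an edgeR adjusted p of 1 and an exact permutation p of 0.013. Total counts ran from 17263209 to 51556592, and the TMM factors were 0.787 and 0.760 in replicates 11 and 13 against 0.992 to 1.09 in the others. The 7 ventricular cardiomyocyte markers were all detected in every library and summed to 61517 to 86328 CPM in the unmarked ones, against 179317 in replicate 11 and 201093 in replicate 13. Myh6 made up most of the sum in every library, and the markers did not move together in the 2 marked ones. Myl3, Myh6, Tnni3 and Tnnt2 were above every unmarked library in both marked libraries, and Actc1 was below them in both. Myl2 was below them in replicate 11, and Irx4 stayed inside their range. In bulk tissue, fewer cells of a type and less RNA per cell cannot be told apart.

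None of the 35 genes passed the test between the genotypes. In the fit of all 12 libraries 0 members had an edgeR adjusted p below 0.05 (0% of the 14107 genes tested did), and 0 had an unadjusted p below 0.05 (0.262% of genes did). Without the marked libraries the counts were again 0 and 0, where 0.00707% of 14139 genes, Hk2 alone, were called and 2.8% had an unadjusted p below 0.05. DESeq2 and limma voom with sample quality weights also gave 0 members at either level in both sets. With all libraries, 64 (DESeq2) and 671 (limma voom) of 14107 genes had an unadjusted p below 0.05, and 0 and 2 were called. Without the marked libraries, 351 and 650 of 14139 genes had an unadjusted p below 0.05, and 3 and 1 were called. In no member did the 2 genotypes separate without overlap, a pattern seen in 0.0213% of genes with 12 libraries and 0.474% with 10. Fold changes were below 0 for 25 of 35 members with all libraries (50.5% of genes) and for 21 of 35 without the marked ones (52.7% of genes). On the log2 scale the median member differed by -0.05 in the first fit and -0.01 in the second, and the median gene by -0.0013 and -0.0046.

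The intervals show how much these libraries could have resolved. Over the members, the standard error of the log2 fold change had a median of 0.20 in the fit of all libraries and 0.07 in that of the unmarked ones. In the latter, estimates ran from -0.27 (Bbc3) to 0.10 (Mief1), and the narrowest interval was that of Mff, at 0.04 (95% interval -0.06 to 0.13). With all libraries, the widest interval was that of Endog, at 0.29 (95% interval -0.97 to 1.54), and leaving out the marked pair reduced it to -0.14 to 0.16. A miss of the threshold does not show equal expression, and the values below carry their intervals for that reason.

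**Figure D1:**
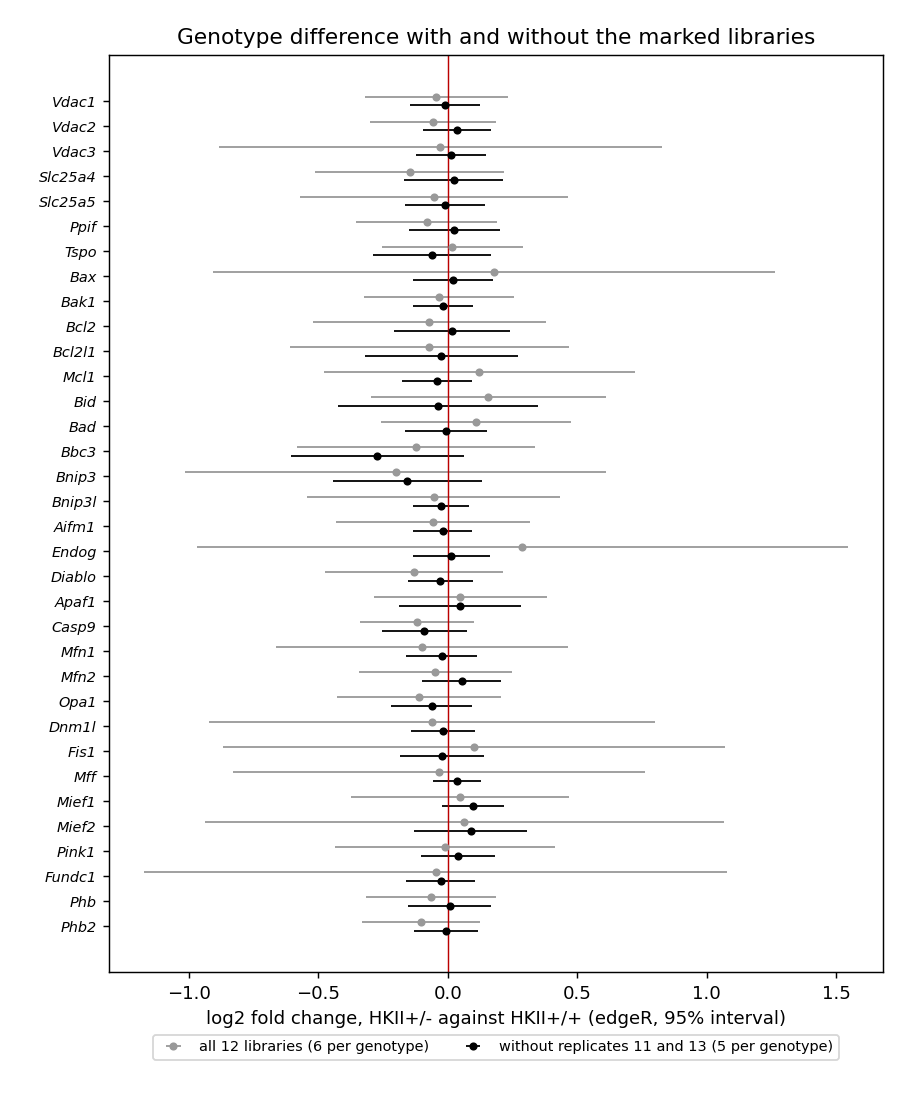
Log2 fold change of each gene, HKII+/- against HKII+/+, on the x axis with genes in rows. Grey points and lines are edgeR estimates with 95% intervals from all 12 libraries (6 per genotype), and black ones those without replicates 11 and 13 (5 per genotype). Every interval crosses 0, and the median standard error is 0.20 in grey and 0.07 in black.

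The marked libraries differed from the other 10 far more than the genotypes differed from each other. In replicate 11, 30 of the 35 genes lay outside the range of the 10 unmarked libraries, 18 below it and 12 above it. Over all genes tested, 84.9% lay outside, 45.1% below and 39.9% above. In replicate 13, 28 members lay outside, 14 below and 14 above, where 79.5% of genes lay outside, 42.6% below and 36.9% above. The departures of the members were thus about as common as those of genes at large. In both libraries 13 members were below the range (38% of genes) and 10 were above it (32.1% of genes), although the libraries carry opposite genotypes. Bid and Phb2 left the range in opposite senses, and Tspo stayed inside it in both. Across the 35 genes the departures in the 2 libraries had a Pearson correlation of 0.95, against 0.88 over all genes tested. Both are descriptions over genes of 2 libraries measured against the same 10.

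The highest departures were in a nuclease, a pore-forming death effector and 2 fission receptors. Endog, which encodes a mitochondrial endonuclease, measured 29.1 to 35.1 CPM in the unmarked libraries but 186 CPM in replicate 11 and 126 CPM in replicate 13, 5.96-fold and 4.03-fold their mean. Bax, the soluble effector that inserts into the outer membrane, measured 14.8 to 19.2 CPM in the unmarked libraries and 76.2 CPM in replicate 11 and 58.95 CPM in replicate 13, 4.58-fold and 3.54-fold the mean. The fission genes Fis1 (3.85-fold and 3.18-fold) and Mief2 (3.67-fold and 3.59-fold) and the survival gene Mcl1 (2.55-fold and 1.8004-fold) were also above every unmarked library in both. At the other end stood Fundc1, a mitophagy receptor of the outer membrane, with 27.7 to 34.1 CPM in the unmarked libraries and 2.72 CPM in replicate 11 and 4.46 CPM in replicate 13, 10.8-fold and 6.59-fold lower than their mean. Dnm1l, the GTPase that constricts mitochondria, was 6.16-fold and 3.17-fold lower, Vdac3 5.93-fold and 3.18-fold, Mff 5.85-fold and 2.42-fold and Bnip3 5.27-fold and 2.61-fold. Genes of 1 function therefore moved both ways, since the 5 fission genes split into 2 above (Fis1, Mief2) and 3 below (Dnm1l, Mff, Mief1) in both libraries.

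**Figure D2:**
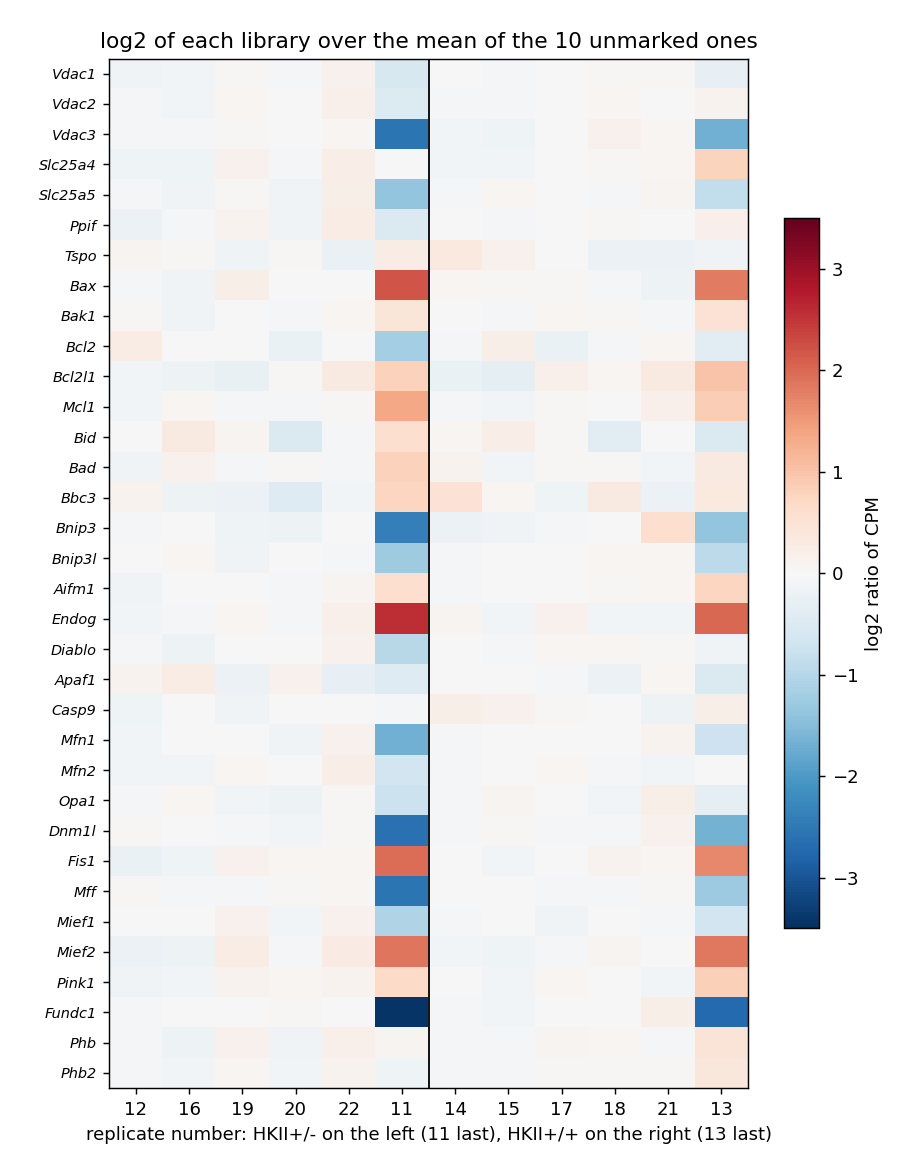
Colour gives the log2 ratio of each gene's CPM in a library to the mean of the 10 unmarked libraries, with genes in rows and libraries in columns, HKII+/- left of the line and HKII+/+ right of it. The last column of each genotype (replicates 11 and 13) carries the deep colours, in the same sense for most genes, from Endog (5.96-fold and 4.03-fold higher) to Fundc1 (10.8-fold and 6.59-fold lower).

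Base composition moved with these departures. The Pearson correlation with the GC content of the longest transcript was 0.79 in replicate 11 and 0.76 in replicate 13 over the 35 members, against 0.61 and 0.64 over the 13977 tested genes with a GC value. The 8 members under 45% GC had a median log2 departure of -2.44 in replicate 11 and -1.32 in replicate 13. The 10 members at 55% GC or more had medians of 0.74 and 0.67. Over all tested genes the medians were -1.31 and -1.07 under 45% GC (3469 genes). At 55% GC or more they were 0.94 and 0.69 (3238 genes). An exception to the pattern was Tspo, at 58.8% GC and 39.3 CPM in replicate 11 and 30.2 CPM in replicate 13 against a mean of 32.9. Tissue markers moved as well. The 6 fibroblast markers summed to 6332 CPM in replicate 11 and 2183 in replicate 13 against 749 to 1179 in the others. Col1a1 and Col1a2 carried that sum, whereas Dcn (78.0 and 104.5 CPM against 356 to 514), Lum (3.40 and 6.16 CPM against 45.5 to 68.1) and Pdgfra (33.2 and 38.6 CPM against 43.8 to 67.4) lay below every unmarked library in both, and Tcf21 lay above them in replicate 11 alone. The 6 airway and lung markers summed to 242 CPM in replicate 11 against 0.313 to 1.76 in the unmarked libraries and 0.787 in replicate 13. The airway marker Scgb1a1 was at 0 in 10 of the 12 libraries and the lung marker Sftpc in 9 of 12, replicate 11 included. Cyp2f2, Scgb1a1, Wfdc2 and Epcam were above every unmarked library in replicate 11, and Sftpb and Sftpc were not. The part of base composition, of other tissue or of RNA quality in these departures was not tested.

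**Figure D3:**
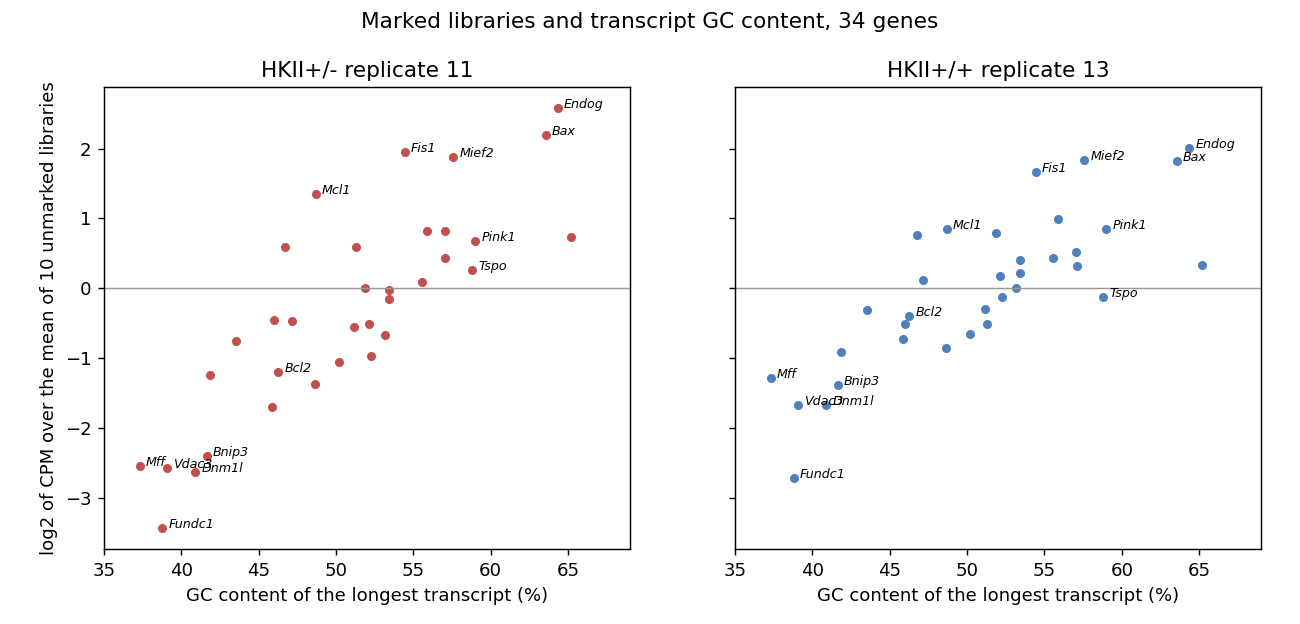
Each point is 1 of 34 genes, with the GC content of its longest GENCODE transcript (percent) on the x axis and the log2 ratio of its CPM in replicate 11 (left) or 13 (right) to the mean of the 10 unmarked libraries on the y axis. Points tend to rise with GC content (Pearson 0.79 and 0.76 over the 35 members), with Fundc1 (38.8% GC) lowest and Endog (64.3% GC) highest. Among the genes off that trend, Tspo lies near 0 at 58.8% GC. Bbc3 lies at 0.74 and 0.33 at 65.2% GC, and Mcl1 at 1.35 and 0.85 at 48.7% GC.

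As examples of sequence, the last 120 coding bases are printed of the 2 members farthest above and of the 2 farthest below the unmarked libraries in replicate 11. They run 5′ to 3′, from GENCODE vM21 transcripts of GRCm38, without the stop codon. The 4 genes were picked by that departure and are not the ends of the GC range, where Bbc3 (65.2%) and Mff (37.3%) lay further out. Capitals mark runs of at least 4 G or C in a row. Endog lies on chromosome 2 at 30171493 to 30174069 (plus strand), Bax on chromosome 7 at 45461697 to 45466898 (minus strand), Fundc1 on chromosome X at 17556564 to 17572325 (minus strand) and Dnm1l on chromosome 16 at 16312230 to 16358959 (minus strand), and all 4 stretches are coding exon sequence.
Endog: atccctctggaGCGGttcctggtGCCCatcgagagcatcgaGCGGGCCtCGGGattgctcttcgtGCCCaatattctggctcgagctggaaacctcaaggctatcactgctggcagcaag
Bax: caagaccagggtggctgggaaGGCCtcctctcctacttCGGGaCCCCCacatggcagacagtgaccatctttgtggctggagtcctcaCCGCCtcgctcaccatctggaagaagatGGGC
Fundc1: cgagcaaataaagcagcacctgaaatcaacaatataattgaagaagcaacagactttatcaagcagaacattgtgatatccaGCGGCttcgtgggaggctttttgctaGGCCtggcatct
Dnm1l: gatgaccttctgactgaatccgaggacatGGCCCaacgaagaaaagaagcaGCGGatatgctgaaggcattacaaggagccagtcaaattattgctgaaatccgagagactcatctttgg
The Endog and Bax stretches are 59.2% and 60.8% G or C and hold 5 such runs each. Those of Fundc1 and Dnm1l are 43.3% and 46.7% and hold 2 each.

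The 3 outer membrane channels did not pass the test, and their estimates lay within 0.04 of 0 without the marked libraries. Vdac1, the main ATP and ADP pore of the outer membrane and the best-known docking site of hexokinase II, measured 986, 1012, 1107, 1035 and 1197 CPM in the unmarked HKII+/- libraries and 1059, 1023, 1078, 1109 and 1111 CPM in the unmarked HKII+/+ ones. Its means were 1068 ± 85.2 against 1076 ± 36.6 CPM (SD, n = 5 each), a log2 fold change of -0.01 (95% interval -0.15 to 0.12). The HKII+/- values reach both below and above the HKII+/+ ones, with replicate 22 highest and replicate 12 lowest of the 10. Vdac2, the isoform known to hold BAK at the membrane, measured 407, 403, 447, 423 and 481 CPM in the unmarked HKII+/- libraries and 405, 409, 423, 449 and 423 CPM in the unmarked HKII+/+ ones, giving a log2 fold change of 0.04 (95% interval -0.09 to 0.16). Vdac3, the least abundant isoform, measured 167, 167, 177, 172 and 180.2 CPM in the unmarked HKII+/- libraries and 160.1, 156, 169.6, 191 and 180.0 CPM in the unmarked HKII+/+ ones, and its log2 fold change was 0.01 (95% interval -0.12 to 0.15). For Vdac2 the HKII+/+ values lay inside the HKII+/- range, and for Vdac3 the reverse held. With replicates 11 and 13 in, the fold changes of the channels were -0.04, -0.06 and -0.03, and the interval of Vdac3 widened to -0.89 to 0.83, since it held 29.01 CPM in replicate 11 and 54.1 CPM in replicate 13. Per kb of exon, Vdac1 was the most abundant, at 411 ± 13.99 CPM per kb in unmarked HKII+/+ libraries, ahead of Vdac2 (88.5 ± 3.58) and Vdac3 (31.6 ± 2.704) (SD, n = 5).

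Carriers and pore regulators of the permeability transition did not pass the test either. Slc25a4, the ADP/ATP carrier of heart and muscle, measured 4359, 4424, 5398, 4623 and 5789 CPM in the unmarked HKII+/- libraries and 4603, 4589, 4961, 4987 and 5089 CPM in the unmarked HKII+/+ ones. Its log2 fold change was 0.02 (95% interval -0.17 to 0.21), and the HKII+/- libraries held both the lowest and the highest value of the 10. Slc25a5, the carrier isoform of proliferating tissues, measured 243, 229.9, 261, 232 and 293 CPM in the unmarked HKII+/- libraries and 243, 264, 253, 239.9 and 268 CPM in the unmarked HKII+/+ ones, a log2 fold change of -0.0097 (95% interval -0.16 to 0.14). Ppif, which encodes cyclophilin D, measured 146, 158, 182, 154 and 200.2 CPM in the unmarked HKII+/- libraries and 165, 157, 164, 170.0 and 169 CPM in the unmarked HKII+/+ ones, a log2 fold change of 0.03 (95% interval -0.15 to 0.20). Again replicate 22 was the highest and replicate 12 the lowest for Ppif and, among the HKII+/- libraries, replicate 22 the highest for both carriers. Tspo, an outer membrane protein that binds cholesterol, measured 35.2, 33.8, 29.8, 34.1 and 27.98 CPM in the unmarked HKII+/- libraries and 41.4, 36.1, 32.7, 28.7 and 28.7 CPM in the unmarked HKII+/+ ones. Its highest value came from HKII+/+ replicate 14 and its lowest from HKII+/- replicate 22, and the log2 fold change was -0.06 (95% interval -0.29 to 0.17). In the marked libraries Slc25a4 measured 4894 CPM in replicate 11 and 8442 CPM in replicate 13, and Slc25a5 97.6 CPM in replicate 11 and 139.8 CPM in replicate 13. The 2 carrier genes thus departed differently there, with Slc25a5 below all unmarked libraries in both. Ppif measured 117 CPM in replicate 11 and 187 CPM in replicate 13, and its log2 fold change with all libraries was -0.08 (95% interval -0.35 to 0.19). Reads of Slc25a5 and Ppif are uncertain where 12.01% and 21.2% of their 100-base windows also occur in pseudogenes and in the overlapping gene Ppifos.

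None of the effectors and survival genes of the BCL2 family passed, and their estimates ran from -0.04 to 0.02. Mcl1, a short-lived survival protein needed by cardiomyocytes, was the most abundant of them and measured 226, 254, 235, 234 and 251 CPM in the unmarked HKII+/- libraries and 234, 230.0, 252, 242 and 278 CPM in the unmarked HKII+/+ ones. HKII+/+ replicate 21 was its highest library, and the log2 fold change was -0.04 (95% interval -0.18 to 0.09). Bak1, the membrane-resident effector, measured 21.9, 19.7, 21.5, 20.8 and 22.2 CPM in the unmarked HKII+/- libraries and 21.3, 20.7, 22.6, 22.1 and 20.9 CPM in the unmarked HKII+/+ ones, a log2 fold change of -0.02 (95% interval -0.13 to 0.10). Its 10 values lay within 19.7 to 22.6 CPM. Bax measured 15.96, 15.4, 19.2, 16.5 and 16.8 CPM in the unmarked HKII+/- libraries and 17.4, 17.2, 16.99, 16.2 and 14.8 CPM in the unmarked HKII+/+ ones, with HKII+/- replicate 19 highest and HKII+/+ replicate 21 lowest. The log2 fold change of Bax was 0.02 (95% interval -0.14 to 0.17) on the 10 libraries and 0.18 (95% interval -0.91 to 1.26) on all 12. Bcl2, the founding survival gene, ranged over 12.4 to 17.4 CPM and differed by 0.02 (95% interval -0.21 to 0.24) on the log2 scale. Bcl2l1, which encodes the survival protein BCL-XL, ranged over 33.1 to 52.4 CPM and differed by -0.02 (95% interval -0.32 to 0.27). Bcl2l1 had the widest spread between libraries of the 35 genes, with a pooled within-genotype SD of 0.245 on the log2 scale. Bax and Bak1 windows shared with the overlapping genes Gm45808 and Ggnbp1 made up 9.49% and 10.7%.

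All 5 BH3-only genes, whose products trigger BAX and BAK or neutralise the survival proteins, had estimates below 0 without the marked libraries, from -0.27 to -0.0075, and none passed. Bbc3, which encodes PUMA, measured 5.24, 4.24, 4.17, 3.53 and 4.44 CPM in the unmarked HKII+/- libraries and 6.83, 5.06, 4.29, 5.903 and 4.14 CPM in the unmarked HKII+/+ ones. Its means were 4.32 ± 0.615 against 5.24 ± 1.13 CPM (SD, n = 5 each) and its log2 fold change -0.27 (95% interval -0.61 to 0.06), the lowest estimate of the 35 genes. HKII+/+ replicate 14 and replicate 18 were its highest unmarked libraries, and the other 3 HKII+/+ values lay within the HKII+/- range. Leaving out 1 more library gave estimates of -0.36 to -0.16. It had an unadjusted p below 0.05 without HKII+/- replicate 12 and without HKII+/+ replicate 21, while its edgeR adjusted p stayed near 1. Bnip3, which also acts as a mitophagy receptor and is induced by low oxygen, measured 106, 109, 97.9, 96.6 and 108 CPM in the unmarked HKII+/- libraries and 95.2, 102, 105, 110.3 and 165 CPM in the unmarked HKII+/+ ones. HKII+/+ replicate 21 stood alone at 165 CPM, where the other 9 libraries lay at 95.2 to 110.3 CPM. Its log2 fold change was -0.16 (95% interval -0.44 to 0.13), and without replicate 21 it was 0.01. Bnip3l, which encodes the related receptor NIX, ranged over 44.4 to 51.4 CPM and differed by -0.03 (95% interval -0.13 to 0.08). Bad, held inactive by survival kinases, ranged over 11.6 to 13.9 CPM and differed by -0.0075 (95% interval -0.16 to 0.15). Bid, activated by caspase cleavage, was the gene of lowest level per length, ranged over 0.922 to 1.62 CPM and differed by -0.04 (95% interval -0.43 to 0.35). With all 12 libraries the estimates of Bid (0.16) and Bad (0.11) were above 0. Windows shared with pseudogenes or overlapping genes made up 33.5% of Bnip3, 15.3% of Bnip3l and 22.9% of Bid, so part of their counts could belong elsewhere.

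Factors released from the intermembrane space and the caspase platform showed no called difference. Casp9, the initiator caspase of the mitochondrial route, measured 15.6, 17.6, 16.2, 17.5 and 17.7 CPM in the unmarked HKII+/- libraries and 20.1, 19.4, 17.9, 17.4 and 15.3 CPM in the unmarked HKII+/+ ones. Its log2 fold change was -0.09 (95% interval -0.26 to 0.07), and replicates 14 and 15, both HKII+/+, were the highest. Diablo, whose product relieves the inhibition of caspases, measured 52.4, 48.9, 55.9, 55.3 and 61.2 CPM in the unmarked HKII+/- libraries and 55.04, 52.9, 57.6, 57.7 and 56.5 CPM in the unmarked HKII+/+ ones. Its log2 fold change was -0.03 (95% interval -0.16 to 0.10), with 64.5% of its windows shared with other annotated genes, the highest share of the 35. Endog measured 29.1, 29.98, 32.5, 29.8 and 35.1 CPM in the unmarked HKII+/- libraries and 33.01, 29.1, 34.3, 29.2 and 29.4 CPM in the unmarked HKII+/+ ones, a log2 fold change of 0.01 (95% interval -0.14 to 0.16). Of its windows 29.4% are shared with Spout1, a gene overlapping it on the other strand. Aifm1, the flavoprotein that moves to the nucleus in caspase-independent death, ranged over 99.4 to 117 CPM and differed by -0.02 (95% interval -0.13 to 0.09). Apaf1, the scaffold on which caspase 9 is activated, ranged over 9.29 to 13.5 CPM and differed by 0.05 (95% interval -0.19 to 0.28).

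The 3 fusion genes did not pass the test. Mfn2, a fusion GTPase that also tethers mitochondria to the endoplasmic reticulum, measured 1222, 1212, 1349, 1288 and 1530.3 CPM in the unmarked HKII+/- libraries and 1263, 1287, 1352, 1256 and 1212 CPM in the unmarked HKII+/+ ones. HKII+/- replicate 22 was the highest, and the other 9 libraries lay at or below 1352 CPM, and the log2 fold change was 0.05 (95% interval -0.10 to 0.20). Opa1, the inner membrane fusion GTPase, measured 279, 300.3, 270.4, 254 and 297 CPM in the unmarked HKII+/- libraries and 272, 308, 287, 268 and 329 CPM in the unmarked HKII+/+ ones. Its log2 fold change was -0.06 (95% interval -0.22 to 0.09), and HKII+/+ replicate 21 was the highest of the 10. Mfn1, the sister of Mfn2, ranged over 458 to 557 CPM and differed by -0.02 (95% interval -0.16 to 0.11). Over all 12 libraries the 3 estimates were -0.10 (Mfn1), -0.05 (Mfn2) and -0.11 (Opa1), all below 0.

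Among the fission genes, the 2 with the smallest p were the receptors that recruit DRP1, the product of Dnm1l. Mief1 measured 35.7, 35.6, 39.5, 33.5 and 39.3 CPM in the unmarked HKII+/- libraries and 34.05, 35.8, 32.4, 35.4 and 34.2 CPM in the unmarked HKII+/+ ones. Its means were 36.7 ± 2.59 against 34.4 ± 1.32 CPM (SD, n = 5 each) and its log2 fold change 0.10 (95% interval -0.02 to 0.22), the highest estimate of the 35 genes. HKII+/- replicates 19 and 22 held its highest values, and the other 3 HKII+/- libraries lay within the HKII+/+ range. Its estimate ran from 0.07 to 0.13 when 1 more library was left out and had an unadjusted p below 0.05 only without HKII+/- replicate 20. Mief2 measured 42.2, 43.05, 57.9, 47.2 and 59.7 CPM in the unmarked HKII+/- libraries and 45.5, 43.9, 46.5, 52.1 and 47.7 CPM in the unmarked HKII+/+ ones, a log2 fold change of 0.09 (95% interval -0.13 to 0.31). Here too replicates 19 and 22 stood highest. Those libraries also had the lowest atrial marker sums, 338 and 437 CPM over 6 genes, against 2512 to 7239 CPM in the other 8 unmarked libraries, and high ventricular sums, 79336 and 86328 CPM. When edgeR was given the average atrial marker level of each library as a covariate, the estimate of Mief2 turned from 0.09 to -0.03 without the marked libraries. That of Mief1 was 0.06 there, and with all 12 libraries it turned from 0.05 to -0.03. Replicates 19 and 22 are both HKII+/-, so atrial level and genotype are partly confounded and cannot be fully told apart. The part of tissue makeup in these estimates was not tested. Dnm1l measured 171, 167, 159, 156 and 169 CPM in the unmarked HKII+/- libraries and 161, 170.1, 159, 158 and 185 CPM in the unmarked HKII+/+ ones, a log2 fold change of -0.02 (95% interval -0.14 to 0.11). Mff, another outer membrane receptor for DRP1, measured 107, 102, 102, 107 and 109.8 CPM in the unmarked HKII+/- libraries and 102, 103, 102, 99.02 and 108 CPM in the unmarked HKII+/+ ones. Its values were the least spread of the 35 genes, with a within-genotype SD of 0.0459 on the log2 scale, and its log2 fold change was 0.04 (95% interval -0.06 to 0.13). Fis1, an outer membrane adaptor, measured 52.3, 55.5, 67.97, 64.99 and 64.05 CPM in the unmarked HKII+/- libraries and 60.3, 57.7, 60.7, 67.1 and 63.9 CPM in the unmarked HKII+/+ ones, a log2 fold change of -0.02 (95% interval -0.18 to 0.14). HKII+/- replicate 12 was its lowest library and HKII+/- replicate 19 its highest.

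The mitophagy genes and prohibitins completed the set. Pink1, the kinase that accumulates on damaged mitochondria, measured 763, 773, 897, 862 and 910.0 CPM in the unmarked HKII+/- libraries and 838, 774, 869, 835 and 774 CPM in the unmarked HKII+/+ ones. Its log2 fold change was 0.04 (95% interval -0.10 to 0.18), and the HKII+/+ values lay inside the HKII+/- range. Fundc1 measured 28.4, 29.02, 29.02, 29.99 and 29.03 CPM in the unmarked HKII+/- libraries and 27.8, 27.7, 29.5, 29.4 and 34.1 CPM in the unmarked HKII+/+ ones. HKII+/+ replicate 21 was the highest library, the other 9 lay at 27.7 to 29.99 CPM, and the log2 fold change was -0.03 (95% interval -0.16 to 0.10). The prohibitin genes Phb and Phb2, which form a ring complex of the inner membrane, ranged over 84.1 to 107 CPM and 204 to 237 CPM and differed by 0.0065 (95% interval -0.15 to 0.17) and -0.0069 (95% interval -0.13 to 0.12). Of the Phb windows 42.8% also occur in other annotated genes. In the fit of all 12, Pink1, Fundc1, Phb and Phb2 all had estimates below 0, from -0.10 (Phb2) to -0.01 (Pink1), and the interval of Fundc1 was -1.17 to 1.08.

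Levels per length differed widely within the set. Slc25a4 was by far the most abundant, at 2059.5 ± 99.04 CPM per kb of exon in unmarked HKII+/+ libraries (SD, n = 5), followed by Vdac1, Pink1 (306 ± 15.9), Mfn2 (245 ± 9.88) and Slc25a5 (154 ± 7.52). Survival and effector genes were far lower, with Mcl1 at 72.3 ± 5.58, Bax at 10.5 ± 0.675, Bcl2l1 at 9.21 ± 1.69, Bak1 at 8.94 ± 0.337 and Bcl2 at 1.59 ± 0.183 CPM per kb. Bid was the lowest of the set (0.370 ± 0.0552), and Apaf1 was also low (1.22 ± 0.0884). Among mitophagy receptors, Bnip3 (51.005 ± 12.5) stood above Bnip3l (12.7 ± 0.465) and Fundc1 (12.6 ± 1.097), and among fission genes Fis1 (36.1 ± 2.12) and Dnm1l (32.01 ± 2.15) stood above Mief2 (17.4 ± 1.15), Mff (10.5 ± 0.317) and Mief1 (4.24 ± 0.163). The order depended in part on the length used. Per kb of the longest transcript, Mff (26.2) stood above Mief2 (18.7), Vdac2 (207) was level with Slc25a5 (204), and Bcl2l1 (16.4) stood above Bax (15.02), while Slc25a4 remained the highest (2517) and Bid the lowest (0.544).

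**Figure D4:**
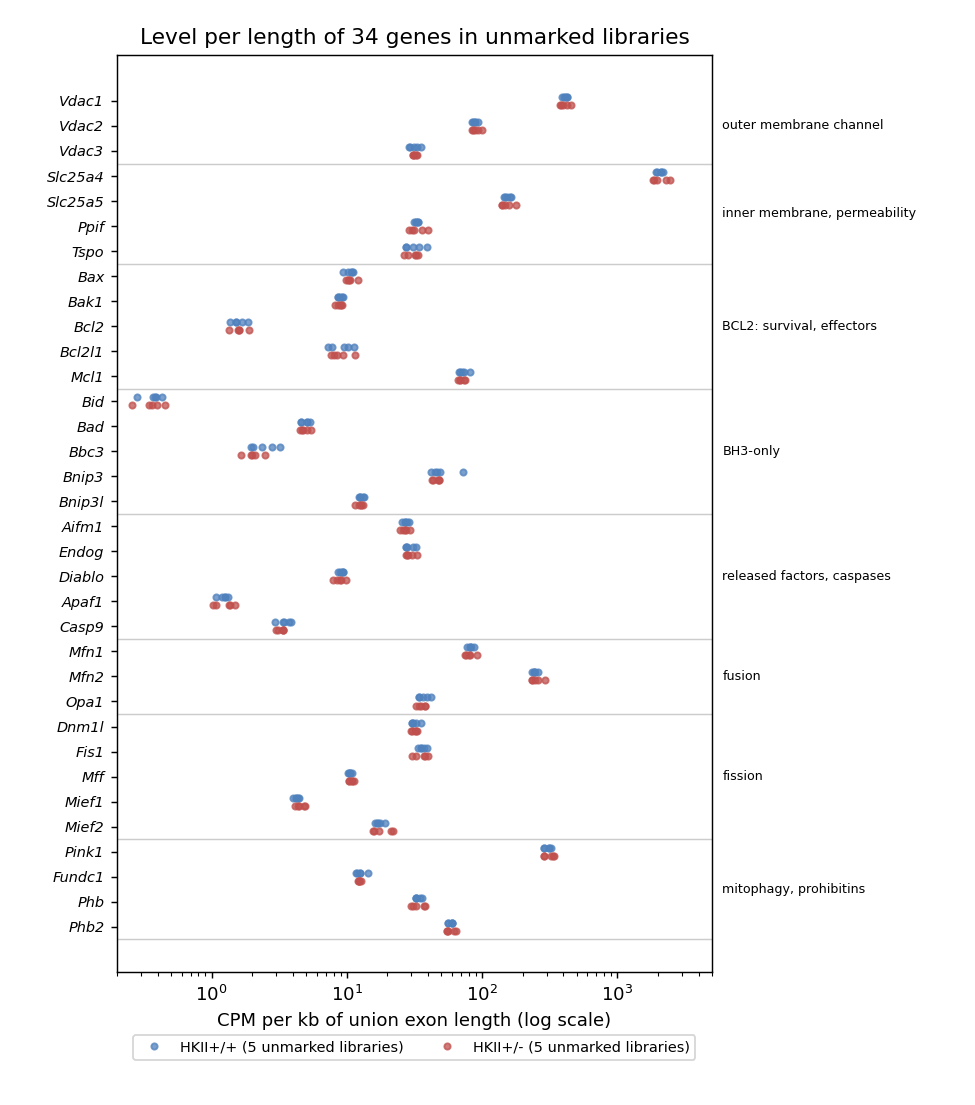
Level per length of each gene, in CPM per kb of union exon length on a log axis, with genes in rows grouped by role. Each point is 1 unmarked library, blue for HKII+/+ and red for HKII+/- (5 each). Slc25a4 lies near 2060 CPM per kb and Bid near 0.370 in HKII+/+, and the red and blue points overlap in every row.

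Within a genotype, the median SD of the members over the 10 unmarked libraries was 0.106 on the log2 scale, against 0.137 over all genes tested, which is not matched for level. Of the 35, 19 varied less than the median of the 500 genes nearest to them in level and 16 did not, so their spread was close to that of genes of like level. The widest were Bcl2l1, Bbc3 (0.236) and Bnip3 (0.229). HKII+/- replicate 22 was the highest unmarked library for 17 of the 35 genes, while it was highest for 14.5% of all genes. HKII+/- replicate 12 was the lowest for 11 members and for 15.7% of all genes. The members together made up 1.30% of the counts in replicate 22 and 1.15% in replicate 12. Since both libraries are HKII+/-, they lie at opposite ends of the same group, and the part of tissue makeup in that was not tested.

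Ratios of 2 members within a library need no scaling factor, and 8 fixed pairs were compared as ratios of counts, not corrected for length. None passed a Benjamini-Hochberg adjustment over the 8. Vdac1 over Vdac2 came closest without the marked libraries, at 2.47 ± 0.0350 in HKII+/- and 2.55 ± 0.0682 in HKII+/+ libraries (SD, n = 5 each; exact two-sided permutation p = 0.0556, adjusted p = 0.444). The ratio was 2.43, 2.51, 2.48, 2.45 and 2.49 in the HKII+/- libraries and 2.62, 2.499, 2.55, 2.47 and 2.62 in the HKII+/+ ones, so the ranges overlapped. The death-to-survival ratio Bax over Bcl2 was 1.16 ± 0.180 against 1.15 ± 0.162, and fusion over fission, as Opa1 over Dnm1l, was 1.704 ± 0.0764 against 1.76 ± 0.0607 (exact permutation p = 0.952 and 0.270). Without the marked libraries the other 5 ratios had exact permutation p between 0.254 (Mfn1 over Mfn2) and 0.833 (Bax over Bcl2l1). Over all 12 libraries every ratio had an adjusted exact permutation p of 0.987, and the smallest unadjusted p that 924 splits allow is 0.0022. The marked libraries stood apart by far more than the genotypes. Bax over Bcl2 was 11.9 in replicate 11 and 5.32 in replicate 13, against 0.917 to 1.36 in the unmarked ones. Opa1 over Dnm1l was 6.33 and 4.44 against 1.63 to 1.81, Vdac1 over Vdac3 25.2 and 16.2 against 5.79 to 6.65, and Slc25a4 over Slc25a5 50.1 and 60.4 against 17.4 to 20.8.

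**Figure D5:**
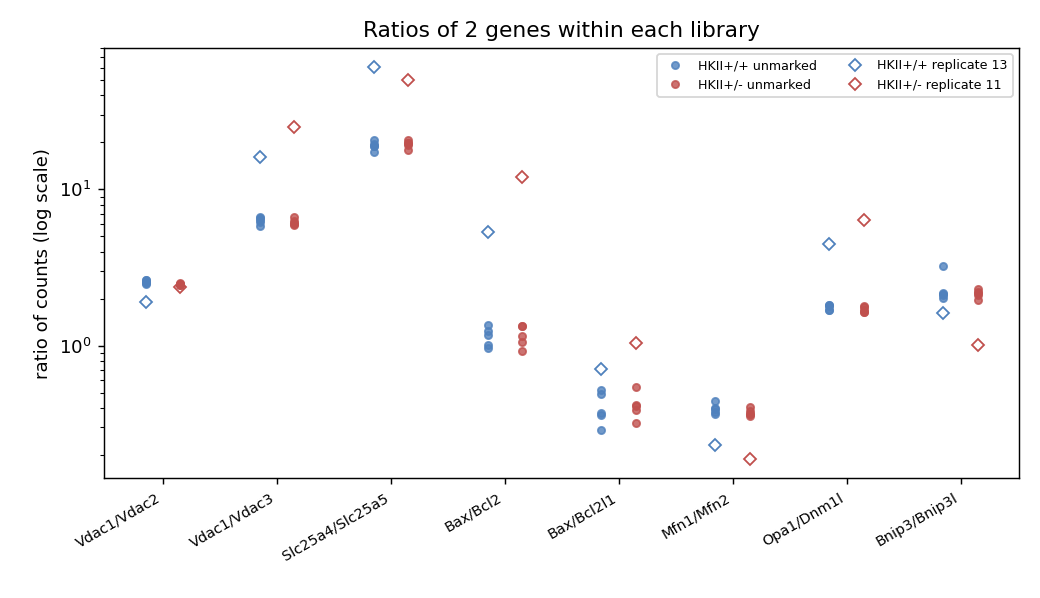
Ratio of the counts of 2 genes within each library, on a log axis, for 8 pairs. Filled points are the 5 unmarked libraries of each genotype, and open diamonds are HKII+/- replicate 11 (red) and HKII+/+ replicate 13 (blue). The filled red and blue points overlap in every pair, while Bax over Bcl2 reaches 11.9 and 5.32 in the diamonds.

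The rest of the machinery around these genes was read from 5 lists of partners: channel and permeability partners, intrinsic death genes, dynamics, mitophagy and import pores. Leaving Hk2 aside, they held 100 genes, of which 95 were tested without the marked libraries and 0 passed the adjusted threshold. At an unadjusted p below 0.05 stood 3 of the 95, against 2.8% of all genes. These were Birc5, which encodes the caspase inhibitor and mitotic protein survivin (log2 fold change 0.56, SE 0.24), the BH3-only gene Bmf (-0.36, SE 0.16) and the cristae gene Chchd6 (-0.30, SE 0.10). Birc5 was low, at 1.01 ± 0.370 against 0.682 ± 0.0938 CPM (SD, n = 5 each), and the estimate of Chchd6 from all 12 libraries was 0.0091. Next by the size of p in their lists came Fam73b of outer membrane fusion, the deubiquitinase gene Usp30 and the exchanger gene Letm1, at 0.11 (SE 0.05), -0.14 (SE 0.07) and -0.09 (SE 0.05). Estimates were below 0 for 62 of the 95 genes, with a median of -0.02, and for 19 of the 23 intrinsic death genes, where 52.7% of all genes were below 0. With all 12 libraries they were below 0 for 66 of 94 and for 13 of 22 intrinsic death genes, where 50.5% of all genes were. The remaining named partners, Ambra1 of mitophagy and Tomm22 and Mtx1 of the import pores, differed by -0.06, -0.07 and 0.09 and had no unadjusted p below 0.05. With all 12 libraries 94 of the 100 were tested and 0 passed, as did 0% of all 14107 genes tested. There 1 of the 94 (Birc5, 0.61, SE 0.23) had an unadjusted p below 0.05, against 0.262% of all genes.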

How the data were processed

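Poly(A) RNA of 12 heart samples was read as single-end reads of 100 nt, per the labels' protocols. STAR 2.4.0 and featureCounts 1.4.4 and the builds mm10 and GRCm38 are named in the submitters' processing notes; the annotation release and the strand setting of the counting are not stated there or in the labels. Each library has its own deposited table of raw integer counts, listed by gene symbol and not normalised. Genotype and replicate number came from the titles. Nothing in the labels says that libraries came from separate animals, so p-values measure only the spread between these samples.

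Counts were tested with edgeR 4.0.16 (glmQLFit and glmQLFTest, R 4.3.3, limma 3.58.1) using TMM factors, a filterByExpr minimum count of 10 and p-values adjusted by Benjamini-Hochberg over all genes tested, at 0.05, on 12 libraries and again, with filter and factors recomputed, on the 10 unmarked ones. CPM and intervals (95%, from the fitted standard error) come from those fits, with CPM always on the factors of all 12. Ratios (0.5 added to each count) and Hk2 were compared by exact two-sided permutation over all splits. The code was first tested on simulated data. No pair of replicates differed as little as sampling noise would give (lowest chi-square per degree of freedom 7.03, over genes with at least 20 counts).

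Exon lengths, GC content and coordinates came from GENCODE vM21 on GRCm38, which holds 22707 of the symbols as they stand and 933 more under a newer name; 60 were ambiguous and 361 absent. GC was available for 99.1% of tested genes. Windows of 100 bases of the longest transcript were searched in all transcripts for shared sequence.

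The 35 members, partner lists and marker lists were chosen with earlier results of these data known. All 35 enter the counts and medians, and 1 of them is not reported here by name or drawn in the figures. Values in every unmarked library are given for Hk2 and the channel and permeability genes. In each other role they are given for the 2 genes with the smallest p without the marked libraries. Values in the marked libraries are printed for only some of these genes. In each partner list 2 genes were taken by the same rule. Bax, Endog, Dnm1l, Fis1 and Mff were added after their values were seen. Alternatives were RLE factors, total counts, no filter, DESeq2 1.42.0, limma voom with sample quality weights, an atrial marker covariate, a threshold of 0.1, a prior count of 5 for ratios, transcript length, and leaving out each library. Counting error is smallest for the deepest libraries, and Bid had the fewest counts of the members, 14 to 63 per library, and the widest interval without the marked libraries.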

Additional observations from a re-analysis of the deposited data

Results flagged for a closer look

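For each gene given library by library, each ratio and Hk2, in each genotype, the highest or lowest library was compared with its nearest neighbour as a share of the range (Dixon's ratio, against its 95% limit). Of 66 groups of 6 libraries 46 exceeded the limit, and 45 of those single libraries were replicate 11 or 13. The limit is set for 1 in 20 independent groups, and these were not independent, since they shared libraries and the ratios reused genes. Bax, Endog, Dnm1l, Fis1 and Mff were also added after their values were seen, so that rate does not apply here. Over all genes tested, 84.9% lay outside the range of the unmarked libraries in replicate 11 and 79.5% in replicate 13. Without the marked libraries 3 of 66 groups exceeded it.

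Only values past the limit are listed here. Other genes were also lowest or highest in a marked library without passing it, such as Vdac1, lowest of its genotype in replicate 11 (730 CPM). Past the limit, HKII+/- replicate 11 held the lowest values of its genotype, in CPM, for Vdac3 (29.01), Slc25a5 (97.6), Bnip3 (20.8), Diablo (28.3), Opa1 (169.8), Mief1 (17.1), Fundc1 (2.72), Dnm1l (26.8) and Mff (17.8). The same library held the highest values of its genotype for Mcl1 (622), Bak1 (28.9), Mief2 (178), Pink1 (1332), Bax (76.2), Endog (186), Fis1 (237) and Hk2 (568). In HKII+/+ replicate 13 the lowest were Vdac1 (877), Vdac3 (54.1), Slc25a5 (139.8), Mief1 (22.5), Fundc1 (4.46), Dnm1l (52.2) and Mff (42.95). Its highest values were Slc25a4 (8442), Mcl1 (439), Bak1 (30.6), Mief2 (174), Pink1 (1488), Bax (58.95), Endog (126) and Fis1 (196).

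Ratios of counts stood apart in the same libraries. Replicate 11 had high ratios of Vdac1 over Vdac3 (25.2), Slc25a4 over Slc25a5 (50.1), Bax over Bcl2 (11.9), Bax over Bcl2l1 (1.04) and Opa1 over Dnm1l (6.33), and low ratios of Mfn1 over Mfn2 (0.188) and Bnip3 over Bnip3l (1.01). Replicate 13 had high ratios of Vdac1 over Vdac3 (16.2), Slc25a4 over Slc25a5 (60.4), Bax over Bcl2 (5.32) and Opa1 over Dnm1l (4.44), and low ratios of Vdac1 over Vdac2 (1.895) and Mfn1 over Mfn2 (0.232).

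Among unmarked libraries, HKII+/+ replicate 21 stood alone. It had the highest Bnip3 (165 CPM) and Fundc1 (34.1 CPM) of its genotype and a ratio of Bnip3 over Bnip3l of 3.25, with the next library at 2.18. The ratio of Bnip3 over Bnip3l also stood apart with replicate 13 included.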

How the results depend on the processing

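The count of members called stayed at 0 under each alternative in both sets of libraries, and at a threshold of 0.1. Genes called at 0.05 ran from 0 to 2 with all libraries and from 0 to 3 without the marked ones. The count of members at an unadjusted p below 0.05 was 0 under each other setting with all libraries. Over all genes it ran there from 28 of 14056 (without HKII+/+ replicate 15) to 671 of 14107 (quality weights). Without replicates 11 and 13 it ran from 0 to 1 members when 1 more was left out. Over all genes it then ran from 276 of 14088 (without replicate 15) to 664 of 14319 (without replicate 21). No fold change of a gene that changed sign lay more than 1.71 standard errors from 0. Among the 103 such changes the lowest adjusted p was 0.888. Ratios are not part of the 103, and their differences changed sign in 22 further cases. With all libraries the sign changed under sample quality weights in limma voom for Vdac2 (0.0048), Vdac3 (0.020), Tspo (-0.060), Mcl1 (-0.021), Pink1 (0.0025), Fundc1 (0.011), Bax (-0.032), Endog (-0.044), Fis1 (-0.019) and Mff (0.033), under the atrial covariate for Mief1 (-0.032) and Pink1 (0.0012), and with total counts for Pink1 (0.0044). Without the marked libraries it changed under quality weights for Slc25a4 (-0.028), Ppif (-0.023), Mfn2 (-0.0068), Fundc1 (0.014), Bax (-0.032) and Endog (-0.045), and under the atrial covariate for Vdac2 (-0.016), Vdac3 (-0.020), Slc25a4 (-0.068), Ppif (-0.066), Tspo (0.018), Mfn2 (-0.0051), Mief2 (-0.030), Pink1 (-0.0030), Bax (-0.0081) and Endog (-0.036). That covariate put 29 of 35 members below 0 without the marked libraries, where 51.6% of genes were. Hk2 passed with all 12 libraries under quality weights (-0.88, adjusted p = 7.66e-05 in limma). With total counts 9 members lay above all unmarked libraries in replicate 13, against 14, and 21 lay below them, against 14. Of all genes tested, 21.7% then lay above, against 36.9%, and 58.2% below, against 42.6%. In replicate 11, 9 members lay above, against 12, and 22 below, against 18. The shares of all genes there were 28.6% above, against 39.9%, and 55.4% below, against 45.1%. Leaving out 1 library of the 12 gave log2 fold changes of Bak1 (-0.12 to 0.079), Bax (-0.49 to 0.71), Bnip3 (-0.36 to 0.0082), Dnm1l (-0.23 to 0.16), Endog (-0.59 to 0.90), Fis1 (-0.47 to 0.57) and Fundc1 (-0.26 to 0.19). It also gave those of Mcl1 (-0.22 to 0.32), Mff (-0.17 to 0.19), Mfn2 (-0.12 to 0.048), Mief1 (-0.027 to 0.18), Mief2 (-0.46 to 0.62), Pink1 (-0.15 to 0.19) and Slc25a4 (-0.20 to 0.034). The remaining ranges were those of Slc25a5 (-0.16 to 0.11), Tspo (-0.034 to 0.093), Vdac1 (-0.095 to 0.036), Vdac2 (-0.11 to 0.012) and Vdac3 (-0.20 to 0.19). Leaving out 1 of the 10 gave Bak1 (-0.035 to 0.0055), Bax (-0.031 to 0.046), Bnip3 (-0.22 to 0.011), Diablo (-0.071 to 0.0070), Dnm1l (-0.037 to 0.024) and Endog (-0.032 to 0.053). It also gave Fis1 (-0.063 to 0.026), Fundc1 (-0.056 to 0.028), Mcl1 (-0.069 to 0.0069), Mfn2 (-0.0047 to 0.080), Ppif (-0.045 to 0.070) and Slc25a4 (-0.042 to 0.060). The remaining ranges there were Slc25a5 (-0.069 to 0.019), Tspo (-0.11 to 0.023), Vdac1 (-0.054 to 0.014), Vdac2 (-0.0052 to 0.058) and Vdac3 (-0.024 to 0.054). Log2 ratio differences, with 1 of the 12 left out, were those of Bax over Bcl2 (-0.36 to 0.57), Bax over Bcl2l1 (-0.094 to 0.27), Mfn1 over Mfn2 (-0.24 to 0.053), Opa1 over Dnm1l (-0.27 to 0.27), Slc25a4 over Slc25a5 (-0.25 to 0.26), Vdac1 over Vdac2 (-0.057 to 0.036) and Vdac1 over Vdac3 (-0.26 to 0.31). With 1 of the 10 left out they were those of Bax over Bcl2 (-0.054 to 0.088), Bax over Bcl2l1 (-0.070 to 0.14), Bnip3 over Bnip3l (-0.15 to 0.023) and Slc25a4 over Slc25a5 (-0.0053 to 0.059). The cause of these changes was not tested. No paired analysis was possible because the replicate numbers of the 2 genotypes do not recur. Depth was lowest for Bid, with 14 to 63 counts per library.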

Other observations

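Atrial markers differed widely between the libraries. Myl7, the atrial light chain gene, measured 19.1 CPM in HKII+/- replicate 19 and 0.469 CPM in HKII+/- replicate 22, against 230.3 to 903 CPM in the other 8 unmarked libraries. Bmp10, a growth factor gene of the right atrium, was listed at 0 counts in HKII+/+ replicate 18, where Myl7 was at 652 CPM and Nppa at 2548 CPM, and measured 129.8 to 204 CPM in the other 7 unmarked libraries that held atrial markers. The makeup of the samples was not tested. Cyp2f2, an airway enzyme gene, measured 191 CPM in HKII+/- replicate 11 and at most 1.396 CPM in every other library.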
